A study of Mus musculus with 60 samples.

Results

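The skin of old wild-type mice given doxycycline without any reprogramming cassette was compared with the skin of untreated old wild-type mice. The libraries were taken by their titles, as the 4 libraries of B6 skin among 60 in the series. The series was built around 4F mice, which carry 1 copy of a polycistronic cassette of Oct4, Sox2, Klf4 and c-Myc (OSKM) and of the rtTA transactivator on a C57BL/B6 background, so that doxycycline turns the factors on. Wild-type mice were included so that effects of the drug itself could be told from effects of the factors. RNA from 6 tissues was sequenced.

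Doxycycline-treated B6 skin is 2 libraries from C57BL/6 males labelled 25 months old, with the drug at 1 mg/ml in their water on 2 days of each week and withheld on the other 5. The series text gives 5 months of such treatment, begun at 20 months of age, whereas a protocol label shared by every library gives 10 months. Untreated B6 skin is 2 libraries from C57BL/6 males, labelled 25 months old but given as 26 months in the series text. The treatment label of the doxycycline B6 libraries speaks of induced 4F, although the strain given is C57BL/6 and the series text describes these mice as a control for the drug. For comparison, doxycycline-treated 4F skin is 3 libraries (1 male and 2 females) and untreated 4F skin is 3 libraries (1 male and 2 females), all at 22 months of age, after 10 months of the same weekly schedule begun at 12 months in the treated mice. Both 4F groups carry the cassette, and what drives rtTA is not given in the sources used here. No label says which libraries come from separate animals, so p-values measure the spread between these samples, which may in part be technical.

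Doxycycline is a tetracycline antibiotic that also slows protein synthesis on mitochondrial ribosomes and inhibits matrix metalloproteinases. Immediate early genes are transcribed within minutes of a growth factor, cytokine, injury or mechanical stimulus without new protein synthesis, and many encode transcription factors such as the AP-1 subunits of the Fos and Jun families. Mouse skin also holds hair follicles that cycle between growth and rest, sebaceous glands that fill with wax esters and triglycerides, a dermal layer of white adipocytes and, beneath them, a thin sheet of skeletal muscle, the panniculus carnosus. All of these share 1 tube of RNA in a whole-skin library, so fewer cells of a type and less RNA per cell cannot be told apart in any result here.

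The 4 libraries hold 43176392 and 21467471 counts for doxycycline skin, against 27006836 and 23927865 counts for untreated skin. Values are given as CPM, counts scaled to a common library size with TMM, with replicate 1 before replicate 2. A floor of 3 counts corresponds to between 0.0695 and 0.140 CPM in single libraries on raw totals, before TMM scaling. Epidermal markers (Krt5, Krt14, Krt1, Krt10, Trp63 and Lor) summed to 4744 and 2451 CPM in doxycycline skin, against 3521 and 7439 CPM in untreated skin, so the labelled tissue carries its defining transcripts. Skeletal muscle markers (Acta1, Ckm, Myh4, Mylpf and Tnnt3) summed to 79269 and 92588 CPM in doxycycline skin, against 62990.3 and 54029 CPM in untreated skin, which shows that muscle was part of every sample.

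Several libraries stood apart, and results that rest on them are given with and without them. Krt71, a keratin of growing follicles, stood at 0.0772 and 0 CPM in doxycycline skin and at 0.152 CPM in untreated replicate 2, against 24.5 CPM in untreated replicate 1. That library also held white fat (369 CPM of Adipoq), 149 CPM of Mmp12, a macrophage elastase, and 9.95 CPM of Xist, the RNA of the inactive X chromosome, beside 79.6 CPM of the Y-linked Ddx3y; the female 4F libraries held between 628 and 782 CPM of Xist. Hepatocyte markers (Alb, Apoc3, Apoa1 and Ttr) summed to 52.8 CPM in untreated B6 replicate 1 and 2.80 CPM in untreated replicate 2. Doxycycline skin held 3.53 and 12.4 CPM of these markers. A list of 12 liver genes had a median log2 fold change of -1.94, and of -0.05 without untreated replicate 1. Untreated B6 replicate 2 was rich in epidermis, with 2826 CPM of Krt10. The mitochondrial genome took 8.39% and 8.16% of the counts in doxycycline skin, against 6.31% and 3.17% in untreated skin. Among the 4F libraries, untreated replicate 1 held 2889 CPM of Kap and 562 CPM of Umod, which are kidney transcripts, and 8.71 CPM of Ddx3y although it is labelled female. Kap also stood at 71.6 CPM in untreated 4F replicate 3, 25.7 CPM in doxycycline 4F replicate 1 and 4.73 CPM in doxycycline 4F replicate 3. Whether tissue or RNA of another sample was mixed into untreated B6 replicate 1 or any 4F library was not tested.

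No gene passed the test between doxycycline and untreated B6 skin. Of 18596 genes tested with edgeR's quasi-likelihood test, 0 (0.0%) had a Benjamini-Hochberg adjusted p under 0.05, and the lowest adjusted p was 0.630. When single libraries were left out it called at most 1 gene, Krt73, without untreated replicate 2. At an unadjusted p under 0.05 stood 1464 genes, where 929.8 would be expected if no gene differed: 854 higher (4.59% of those tested) and 610 lower (3.28%) in doxycycline skin. DESeq2, run on the same design, called 92 genes, 49 higher (0.263%) and 43 lower (0.231%). None of these 92 genes was called in every DESeq2 setting tried, and the count ran between 1 without doxycycline replicate 2 and 489 without untreated replicate 1, with 21 without doxycycline replicate 1 and 23 without untreated replicate 2. The values below are therefore effect sizes with their errors, and a gene called by DESeq2 is named as such.

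Effect sizes were moderate for most genes. The median absolute log2 fold change was 0.44, about the size of the median standard error of 0.48. Differences of 2-fold or more were seen for 988 genes higher and 2435 genes lower in doxycycline skin, and 817 genes differed 4-fold or more. The signed median was -0.07, with 8396 genes (45.1%) above 0 and 10179 (54.7%) below 0. With 2 libraries per arm, 4858 genes (26.1%) had both doxycycline libraries above both untreated ones and 4903 (26.4%) had both below, and counts of genes whose arms do not overlap are read against these shares.

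**Figure D1:**
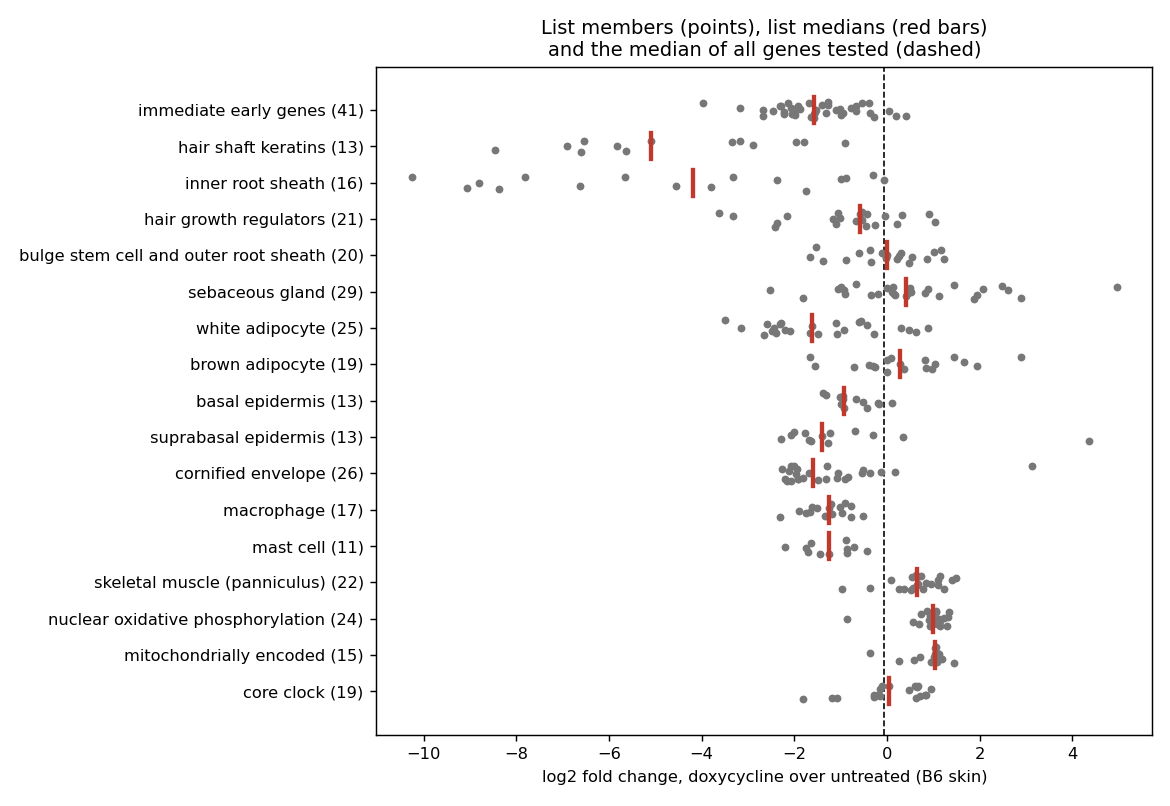
Log2 fold changes of the tested members of 17 gene lists (grey points, number of members in brackets) in doxycycline over untreated B6 skin, with each list's median (red bar) and the median of all genes tested (dashed line, -0.07). Immediate early genes lie almost wholly left of the line and oxidative phosphorylation genes right of it; points beyond about -5 are hair genes at or near 0 counts in doxycycline skin, whose fitted position depends on the prior count and is no measure of size.

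Immediate early genes were lower in doxycycline skin. Of 44 symbols listed, 42 were matched and 41 passed the low-count filter (Egr4 did not). Of these 41, 38 had a log2 fold change below 0 and 36 had both doxycycline libraries below both untreated ones, where 26.4% of all genes tested did. Their median log2 fold change was -1.56, against -0.07 for all genes tested. At an unadjusted p under 0.05 edgeR placed 22 of the 41 lower (3.28% of all genes tested), and none of them passed adjustment; DESeq2 called 3, Junb, Fosb and Socs3. Summed over the list, the level was 1697 and 2893 CPM in doxycycline skin, against 5879 and 9606 CPM in untreated skin, with no overlap. The list median was -0.97 without untreated replicate 2, the library with the higher sum, and -1.90 without untreated replicate 1.

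Junb (ENSMUSG00000052837, chr8:84974484-84978718 in GRCm38), an AP-1 subunit of the Jun family, had 36.8 and 50.6 CPM in doxycycline skin, against 154 and 326 CPM in untreated skin. Every doxycycline value lay below every untreated value, and the log2 fold change was -2.46 ± 0.51 (SE) with an unadjusted edgeR p of 0.00173. DESeq2 gave it an adjusted p of 0.0069 over the 10 skin libraries and of 0.000102 over the 4 B6 libraries alone, but 0.254, 0.0998 and 0.557 without doxycycline replicate 1, doxycycline replicate 2 and untreated replicate 2, and 0.000264 without untreated replicate 1. Its log2 fold change ran between -2.95 and -1.82 when single libraries were left out. Fosb, another AP-1 subunit, had 20.6 and 48.4 CPM in doxycycline skin, against 269.9 and 803 CPM in untreated skin, which gives -3.96 ± 1.10 on the log2 scale. The arms of Fosb did not overlap, although the libraries within each arm differed as well. Socs3, a feedback inhibitor of cytokine receptor signalling, had 27.5 and 32.03 CPM in doxycycline skin, against 66.8 and 185 CPM in untreated skin (-2.08 ± 0.44). Here the doxycycline libraries lay close together and untreated replicate 2 set most of the size, with a log2 fold change of -1.17 when that library was left out. DESeq2 lost Fosb and Socs3 without doxycycline replicate 1 (adjusted p 0.302 and 0.289), doxycycline replicate 2 (0.0674 and 0.252) or untreated replicate 2 (0.963 and 0.0983).

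The promoters of Junb, Fosb and Zfp36 are shown as the start sites of early genes whose arms stand apart; each window covers 250 bases before and 50 bases after the RefSeq start in GRCm38.p6, 5′ to 3′ on the minus strand, and capitals mark matches to the motifs searched. Junb is at chr8:84978699-84978998, Fosb at chr7:19309996-19310295 and Zfp36 at chr7:28379179-28379478.
Junb: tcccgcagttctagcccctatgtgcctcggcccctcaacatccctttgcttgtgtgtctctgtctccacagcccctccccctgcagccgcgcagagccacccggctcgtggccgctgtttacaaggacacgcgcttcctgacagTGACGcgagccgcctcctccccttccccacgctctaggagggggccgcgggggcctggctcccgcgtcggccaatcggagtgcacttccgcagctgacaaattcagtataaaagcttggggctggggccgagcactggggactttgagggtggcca
Fosb: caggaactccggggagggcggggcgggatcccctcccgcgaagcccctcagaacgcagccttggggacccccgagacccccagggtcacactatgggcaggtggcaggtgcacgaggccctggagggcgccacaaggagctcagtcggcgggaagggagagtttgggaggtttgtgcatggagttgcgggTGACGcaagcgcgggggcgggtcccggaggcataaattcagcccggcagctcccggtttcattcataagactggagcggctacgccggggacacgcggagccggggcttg
Zfp36: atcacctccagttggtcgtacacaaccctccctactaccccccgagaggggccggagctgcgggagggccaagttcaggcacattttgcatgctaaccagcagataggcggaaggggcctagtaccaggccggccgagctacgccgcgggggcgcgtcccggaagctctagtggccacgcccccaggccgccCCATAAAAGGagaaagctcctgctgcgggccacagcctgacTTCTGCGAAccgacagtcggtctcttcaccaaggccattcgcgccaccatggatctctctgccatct
In Junb and Fosb the capitals are TGACG, the core of the cyclic AMP response element, starting at base 145 and at base 191 of the window. In Zfp36 they are a CArG box, the site of serum response factor, at base 193 and a STAT-type TTCNNNGAA at base 234. The search was made on both strands. Of the 42 matched immediate early genes, 34 had a promoter in the RefSeq table, and TGACG stood in 20 of them (58.8%), against 5681 of 27025 promoters in the whole table (21.0%). The full cyclic AMP response element TGACGTCA, which contains the shorter core, stood in 3 of 34 (8.82%, Btg2, Dusp1 and Plk2), against 507 of all promoters (1.88%). A CArG box stood in 3 of 34 (8.82%, Dusp5, Srf and Zfp36), against 425 of all promoters (1.57%). TTCNNNGAA stood in 4 of 34 (11.8%), against 2288 of all promoters (8.47%), and the AP-1 motif TGANTCA in 0 of 34, against 2144 of all promoters (7.93%). These are matches of letters within the window only. The comparison took every promoter of the table, whether or not its gene is expressed in skin, and base composition was not matched. A link between the motifs and the doxycycline difference was not tested.

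Other AP-1 subunits showed the same direction. Fos had 84.7 and 316 CPM in doxycycline skin, against 992 and 1564 CPM in untreated skin (-2.67 ± 0.99), with doxycycline replicate 2 between doxycycline replicate 1 and the untreated libraries. Jun had 98.9 and 143 CPM in doxycycline skin, against 300.0 and 302 CPM in untreated skin (-1.32 ± 0.36), and its untreated values nearly coincided. Fosl2 had 47.8 and 54.2 CPM in doxycycline skin, against 90.9 and 235 CPM in untreated skin (-1.68 ± 0.44). Fosl1, at a low level, had 0.386 and 0.337 CPM in doxycycline skin, against 1.02 and 3.68 CPM in untreated skin (-2.68 ± 0.73). For both Fosl genes untreated replicate 2 was the highest library, and the arms did not overlap.

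Other early genes were lower as well. Egr1, a zinc finger transcription factor induced by serum, had 126 and 215 CPM in doxycycline skin, against 591 and 1007 CPM in untreated skin (-2.23 ± 0.81). Zfp36, which encodes tristetraprolin, a factor that destabilises cytokine mRNAs, had 53.7 and 66.3 CPM in doxycycline skin, against 249.6 and 346 CPM in untreated skin (-2.31 ± 0.66). Dusp1, a phosphatase that inactivates MAP kinases, had 127 and 341 CPM in doxycycline skin, against 531 and 846 CPM in untreated skin (-1.56 ± 0.57). The arms of these 3 genes stood apart, with unadjusted edgeR p of 0.0274, 0.00910 and 0.0276. Ptgs2, the inducible cyclooxygenase of prostaglandin synthesis, had 1.802 and 2.87 CPM in doxycycline skin, against 21.98 and 19.7 CPM in untreated skin (-3.17 ± 1.36). Arc, best known as an activity-regulated gene of neurons, had 1.03 and 1.18 CPM in doxycycline skin, against 2.11 and 7.54 CPM in untreated skin (-2.13 ± 0.60). Over the 4 B6 libraries alone, DESeq2 gave adjusted p of 9.54e-07 for Fosb, 2.08e-08 for Zfp36, 1.68e-11 for Ptgs2, 0.000338 for Egr1 and 0.00544 for Fos, and over the 10 skin libraries 0.0143, 0.0632, 0.232, 0.167 and 0.145.

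Some members differed little or overlapped. Nr4a1, an orphan nuclear receptor, had 94.9 and 293 CPM in doxycycline skin, against 343 and 403 CPM in untreated skin (-0.94 ± 0.74). Its relatives overlapped between the arms: Nr4a2 had 2.24 and 11.01 CPM in doxycycline skin, against 5.195 and 7.504 CPM in untreated skin, and Nr4a3 had 3.58 and 8.26 CPM in doxycycline skin, against 3.45 and 5.46 CPM in untreated skin. Ccn2, a matricellular growth factor, overlapped as well, with 38.3 and 48.6 CPM in doxycycline skin, against 42.5 and 33.6 CPM in untreated skin. Klf10 and Gadd45g completed the 5 members whose arms overlapped. In each of Nr4a2, Nr4a3 and Gadd45g the doxycycline libraries differed from each other by over 2-fold, with replicate 2 the higher.

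**Figure D2:**
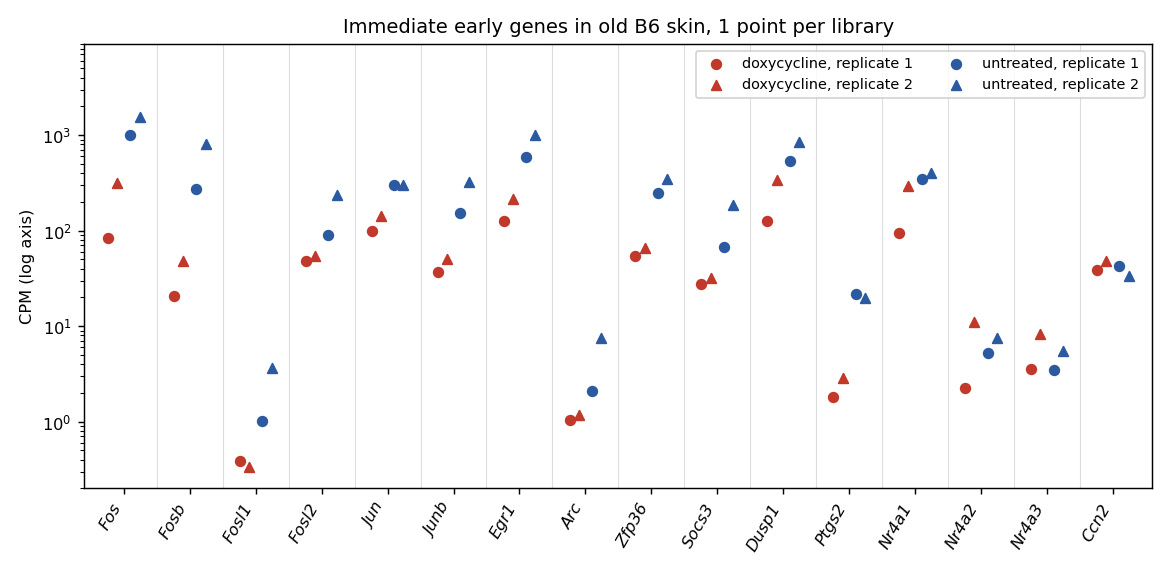
CPM (log axis) of 16 immediate early genes in the 4 B6 skin libraries: doxycycline replicates 1 and 2 (red circle and triangle) stand left of untreated replicates 1 and 2 (blue circle and triangle). For Junb the red points lie at 36.8 and 50.6 CPM and the blue at 154 and 326 CPM; for Nr4a2, Nr4a3 and Ccn2 at the right the colours overlap.

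In 4F skin, where doxycycline also induces the factors, the same list had a median log2 fold change of -0.57, with 7 of 41 members above 0, where 45.0% of all genes tested were. Junb there was -0.72 ± 0.40, with 177, 112 and 45.98 CPM in doxycycline 4F skin, against 122, 123 and 329 CPM in untreated 4F skin, and these arms overlapped. The effect in B6 minus that in 4F skin was tested in the same fit: edgeR called 0 of 18596 genes (0.0%), placed 605 (3.25%) at an unadjusted p under 0.05, and DESeq2 called 65 (0.35%). For Junb the difference was -1.74 ± 0.63 (unadjusted p 0.0273), for Jun -1.86 ± 0.46 (unadjusted p 0.00415) and for Zfp36 -2.19 ± 0.82 (unadjusted p 0.0312), and neither tool called any of the 3. Genotype, age, length of treatment and sex mix all differ between the B6 and 4F comparisons and cannot be told apart.

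In the other 5 tissues of the B6 mice the list medians were -0.66 in kidney, -0.73 in liver, -0.10 in lung, -0.10 in skeletal muscle and 0.11 in spleen. The effect in skin minus the mean effect in those tissues had a list median of -1.25. In that contrast edgeR called 0 of 21232 genes (0.0%) and placed 1809 (8.52%) at an unadjusted p under 0.05. Junb was -2.05 ± 0.70 in the contrast (unadjusted p 0.0106) and Zfp36 -1.98 ± 0.64 (unadjusted p 0.00760), so both effects were more negative in skin than the mean elsewhere, without passing adjustment.

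Hair follicle genes were lower in doxycycline skin, and most of that difference came from untreated replicate 1. Of the inner root sheath genes, which encode the keratins and linker proteins of the sheath that moulds a growing hair, 16 were tested, 0 were higher, and 9 had both doxycycline libraries below both untreated ones (26.4% of all genes tested). Krt71, an inner root sheath keratin, had 0.0772 and 0 CPM in doxycycline skin, against 24.5 and 0.152 CPM in untreated skin. Krt28 had 0.129 and 0.112 CPM in doxycycline skin, against 12.1 and 0.682 CPM in untreated skin (-5.65 ± 1.42). Krt27 had no count in either doxycycline library, against 9.99 and 0.189 CPM in untreated skin, which makes it at least 98.1-fold lower with 3 counts over the arm as the floor. In all 3 genes untreated replicate 1 was far above untreated replicate 2, which stood near the doxycycline level for Krt71. DESeq2 called these 3 lower over the 10 libraries. It called none of them without either doxycycline library or without untreated replicate 1, and in the last case the adjusted p were 0.677 for Krt71, 0.179 for Krt28 and 0.106 for Krt27. The list median was -4.18, and -1.19 without untreated replicate 1 and -0.998 when the 4 B6 libraries were fitted alone, where fewer members pass the filter. Members that passed the filter only through a library rich in growing hair had to differ, so these counts describe the libraries.

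Tchh had arms that did not overlap. It encodes trichohyalin, which cross-links keratin in the inner root sheath, and had 2.65 and 1.405 CPM in doxycycline skin, against 16.2 and 5.12 CPM in untreated skin (-2.37 ± 0.68). Without untreated replicate 1 its log2 fold change was -1.36 (DESeq2 adjusted p 0.384). By contrast Krt73, a cuticle keratin of the sheath, had 0.0772 and 0.112 CPM in doxycycline skin, against 18.5 and 0.0379 CPM in untreated skin, and turned to 1.12 on the log2 scale without that library. Without untreated replicate 2 edgeR called Krt73 lower (adjusted p 0.0261), a call that then rests on untreated replicate 1 alone.

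Of the hair shaft keratins 13 were tested and 0 were higher. Arms did not overlap for 5 of them, all lower in doxycycline skin (26.4% of all genes tested). Only 4 of the 13 passed the low-count filter in the 4 B6 libraries alone, so these counts too describe the libraries. Krt33a, a type I shaft keratin, had no count in doxycycline skin, against 2.58 and 0.341 CPM in untreated skin, which makes it at least 28.02-fold lower. Krt32, a cuticle keratin, had 3.09 and 1.01 CPM in doxycycline skin, against 8.21 and 22.7 CPM in untreated skin (-2.88 ± 1.70), and here untreated replicate 2 was the higher. Krt36, another type I shaft keratin, had 1.65 and 0.955 CPM in doxycycline skin, against 5.52 and 3.52 CPM in untreated skin (-1.78 ± 1.39). These 2 keratins kept their arms apart without resting on untreated replicate 1. Krt35, an early shaft keratin, had 0.206 and 0.112 CPM in doxycycline skin, against 19.5 and 0.189 CPM in untreated skin, and its log2 fold change was -0.20 without untreated replicate 1. The list median was -5.09, or -2.95 with the 5 genes that lack counts in doxycycline skin held at their bounds, -2.33 in the 4 B6 libraries alone and -0.20 without untreated replicate 1. Summed, shaft keratins reached 5.76 and 2.14 CPM in doxycycline skin, against 44.3 and 28.5 CPM in untreated skin.

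Keratin-associated proteins, the matrix between the keratin filaments of the shaft, were near the floor. Of 51 symbols, 45 were tested and 33 of them had no count in an arm. Summed over the list they reached 3.500 and 0.843 CPM in doxycycline skin, against 31.7 and 9.095 CPM in untreated skin. The sums did not overlap, but in the growing-hair 4F library, untreated replicate 3, the same sum was 5202 CPM. Krtap8-1 had no count in doxycycline skin, against 3.09 and 0.0379 CPM in untreated skin, so its bound of at least 30.1-fold lower rests on untreated replicate 1 (DESeq2 adjusted p 0.346 over the 10 libraries and 0.917 without that library).

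Lists for the permanent part of the follicle had medians near 0 over the 4 libraries, and the dermal papilla list did not stay there without untreated replicate 1. Bulge stem cell and outer root sheath genes split evenly, 10 higher and 10 lower of 20, with a median of -0.01. Krt15, a keratin of the bulge and basal layer, had 806 and 334 CPM in doxycycline skin, against 856 and 2096 CPM in untreated skin (-1.37 ± 1.39). Lgr5, a marker of follicle stem cells, had 3.89 and 6.07 CPM in doxycycline skin, against 4.29 and 1.02 CPM in untreated skin (0.90 ± 0.68), with overlap. Without untreated replicate 1, Lgr5 was 2.23 higher on the log2 scale (DESeq2 adjusted p 0.0432, against 0.637 over the 10 libraries). Dermal papilla genes had a median of -0.04 over 19 tested, with 9 above 0, and of 0.80 with 14 above 0 without untreated replicate 1. Bmp4, a signal that holds follicles at rest, had 16.8 and 12.6 CPM in doxycycline skin, against 22.6 and 45.4 CPM in untreated skin (-1.21 ± 0.36, unadjusted p 0.0105). Regulators of hair growth had a median of -0.59 over 21 tested, which turned to 0.46 without untreated replicate 1. Among them Dlx3, a homeobox factor of hair differentiation, had 4.81 and 1.405 CPM in doxycycline skin, against 15.8 and 17.9 CPM in untreated skin (-2.42 ± 1.31), and did not rest on that library.

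**Figure D3:**
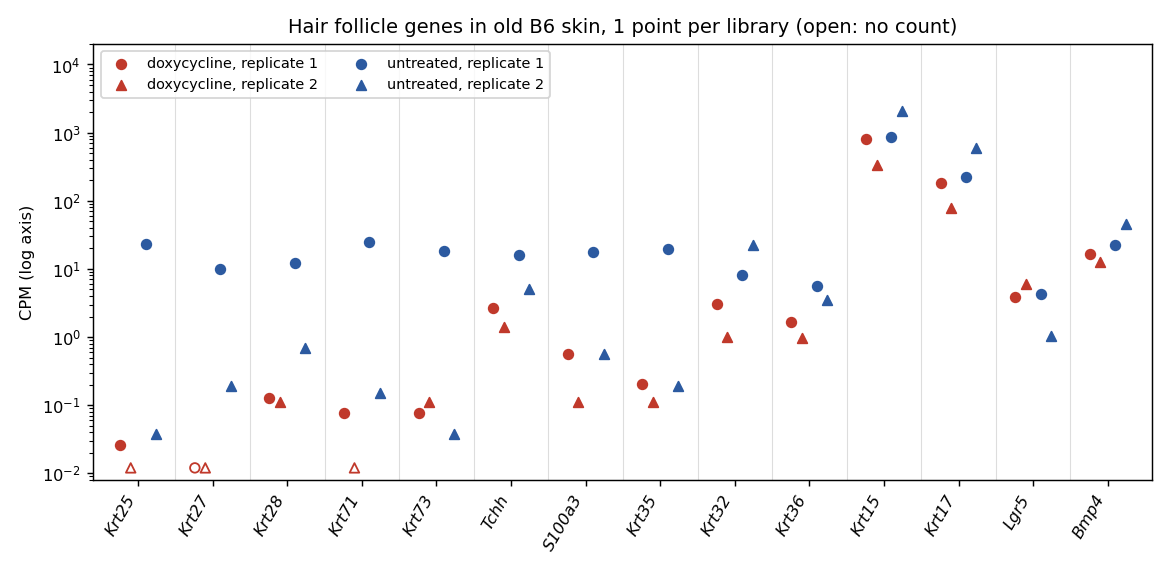
CPM (log axis) of 14 hair follicle genes in the 4 B6 skin libraries, doxycycline (red) left of untreated (blue), circles for replicate 1 and triangles for replicate 2; open symbols at the bottom stand for no count. Untreated replicate 1 stands alone at the top for Krt25, Krt71 and Krt73, with 24.5 CPM of Krt71 against 0.152 CPM in untreated replicate 2, whereas Tchh, Krt32 and Krt36 are lower in both doxycycline libraries than in both untreated ones.

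A set of sebaceous gland genes was higher in doxycycline skin. Of 29 tested, 19 had a log2 fold change above 0 and 9 below, and Cyp2g1 had no count in B6 skin. Both doxycycline libraries lay above both untreated ones for 14 members, where 26.1% of all genes tested did so, and below them for 3. The median was 0.40, with a range of 0.22 to 0.58 when single libraries were left out. edgeR placed 4 higher at an unadjusted p under 0.05 (4.59% of all genes tested) and called none, and DESeq2 called Hsd3b6 alone.

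Cidea (ENSMUSG00000024526), a lipid droplet protein of sebocytes and brown adipocytes, had 10.9 and 12.3 CPM in doxycycline skin, against 3.31 and 2.69 CPM in untreated skin. The values within each arm were close, the log2 fold change was 1.95 ± 0.53 (unadjusted edgeR p 0.00693), and it stayed between 1.81 and 2.05 without any single library. DESeq2 gave an adjusted p of 0.0731 over the 10 skin libraries, 0.000169 without untreated 4F replicate 1 and 0.000154 over the 4 B6 libraries alone, but 0.424 without doxycycline replicate 1, 0.112 without untreated replicate 1 and 1 without untreated replicate 2, and none (NA) without doxycycline replicate 2. Elovl3, which elongates the very long fatty acids of sebum, had 8.26 and 13.5 CPM in doxycycline skin, against 1.49 and 1.44 CPM in untreated skin (2.89 ± 1.12). Fa2h, the fatty acid 2-hydroxylase, had 45.8 and 69.3 CPM in doxycycline skin, against 7.99 and 12.7 CPM in untreated skin (2.47 ± 0.98). In each of these 3 genes the gap between the arms was wider than the spread within either arm.

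Of the enzymes linked to wax ester synthesis, Far2, Awat1 and Scd3 shared the direction, and Awat2 overlapped between the arms. Far2, a fatty acyl-CoA reductase that makes the alcohol of wax esters, had 34.9 and 50.5 CPM in doxycycline skin, against 4.65 and 9.32 CPM in untreated skin (2.61 ± 1.28). Awat1, an acyl-CoA wax alcohol acyltransferase, had 2.75 and 2.92 CPM in doxycycline skin, against 0.436 and 1.099 CPM in untreated skin (1.88 ± 1.15). Scd3, the stearoyl-CoA desaturase of the sebaceous gland, had 24.6 and 21.5 CPM in doxycycline skin, against 3.78 and 7.16 CPM in untreated skin (2.08 ± 1.06). Far2, Awat1 and Scd3 had arms apart and errors of more than 1 log2 unit. Awat2 had 2.34 and 2.42 CPM in doxycycline skin, against 0.872 and 2.73 CPM in untreated skin. Hsd3b6, a steroid dehydrogenase, had 1.06 and 1.52 CPM in doxycycline skin, against 0.0727 and 0 CPM in untreated skin, with DESeq2 adjusted p of 0.046 and a mean below 1 CPM.

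Other members ran the other way. Gldc, the glycine decarboxylase, had 3.01 and 1.46 CPM in doxycycline skin, against 7.85 and 18.04 CPM in untreated skin (-2.52 ± 0.82). Dgat2, which completes triglyceride synthesis in sebocytes and adipocytes alike, had 135 and 58.8 CPM in doxycycline skin, against 419.9 and 259 CPM in untreated skin (-1.81 ± 0.82). Scd1, also shared with adipocytes, had 389 and 424 CPM in doxycycline skin, against 1341 and 266 CPM in untreated skin, and overlapped. Summed CPM over the list went with these abundant members, at 1506 and 1519 CPM in doxycycline skin, against 2509.6 and 1634 CPM in untreated skin, so the sum and the median of the list differ in direction.

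White adipocyte genes did not separate the arms. Of 25 tested, 4 were higher, 22 overlapped between the arms, and 1 was apart higher and 2 apart lower. Of all 18596 genes tested, 8835 overlapped. Adipoq, which encodes the adipocyte hormone adiponectin, had 56.9 and 6.46 CPM in doxycycline skin, against 369 and 30.7 CPM in untreated skin (-2.65 ± 2.25). Lep, which encodes leptin, had 37.5 and 2.42 CPM in doxycycline skin, against 355 and 2.54 CPM in untreated skin (-3.16 ± 2.96). For both hormones replicate 1 was far above replicate 2 in the doxycycline arm and in the untreated arm. Retn, the adipokine resistin, had 21.03 and 4.33 CPM in doxycycline skin, against 123 and 18.9 CPM in untreated skin (-2.48 ± 1.71), and Mest, an imprinted gene of expanding fat, had 2.21 and 2.19 CPM in doxycycline skin, against 48.7 and 1.14 CPM in untreated skin (-3.50 ± 2.43). The Mest difference rests on untreated replicate 1 and was 0.90 without it. The list median was -1.61, and it moved to 0.30 without untreated replicate 1 and to -2.66 without doxycycline replicate 1. Cfd, the complement factor adipsin, was apart in the lower direction, with 267 and 32.03 CPM in doxycycline skin, against 1446 and 351 CPM in untreated skin (-2.59 ± 1.47). Pnpla2, the triglyceride lipase ATGL, had 271 and 205 CPM in doxycycline skin, against 394 and 304 CPM in untreated skin (-0.55 ± 0.39). Slc2a4, the insulin-responsive glucose transporter of fat and muscle, was the member apart in the other direction, with 423 and 589.8 CPM in doxycycline skin, against 389 and 159 CPM in untreated skin (0.89 ± 0.46). Cebpa, a transcription factor of fat cells and myeloid cells, is among the 10 genes with the smallest unadjusted p in the lower direction and had 54.9 and 26.9 CPM in doxycycline skin, against 135 and 122 CPM in untreated skin (-1.65 ± 0.34).

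Ucp1, the uncoupling protein that defines brown adipocytes, was at or below 0.114 CPM in every B6 skin library. The brown adipocyte list, 19 genes tested with a median of 0.29, therefore describes genes that brown fat shares with other cells. Pank1, a pantothenate kinase of coenzyme A synthesis, had 25.9 and 24.8 CPM in doxycycline skin, against 13.6 and 14.9 CPM in untreated skin (0.83 ± 0.20); DESeq2 called it, with adjusted p of 0.0221, but not without any single B6 library. Ppargc1a, a coactivator of mitochondrial genes, had 64.6 and 89.6 CPM in doxycycline skin, against 37.9 and 10.6 CPM in untreated skin (1.67 ± 0.57). Cpt1b, the muscle form of carnitine palmitoyltransferase, had 564 and 564 CPM in doxycycline skin, against 378 and 173 CPM in untreated skin (1.03 ± 0.41). The last 2 genes are also expressed in skeletal muscle, whose markers were higher in doxycycline skin.

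**Figure D4:**
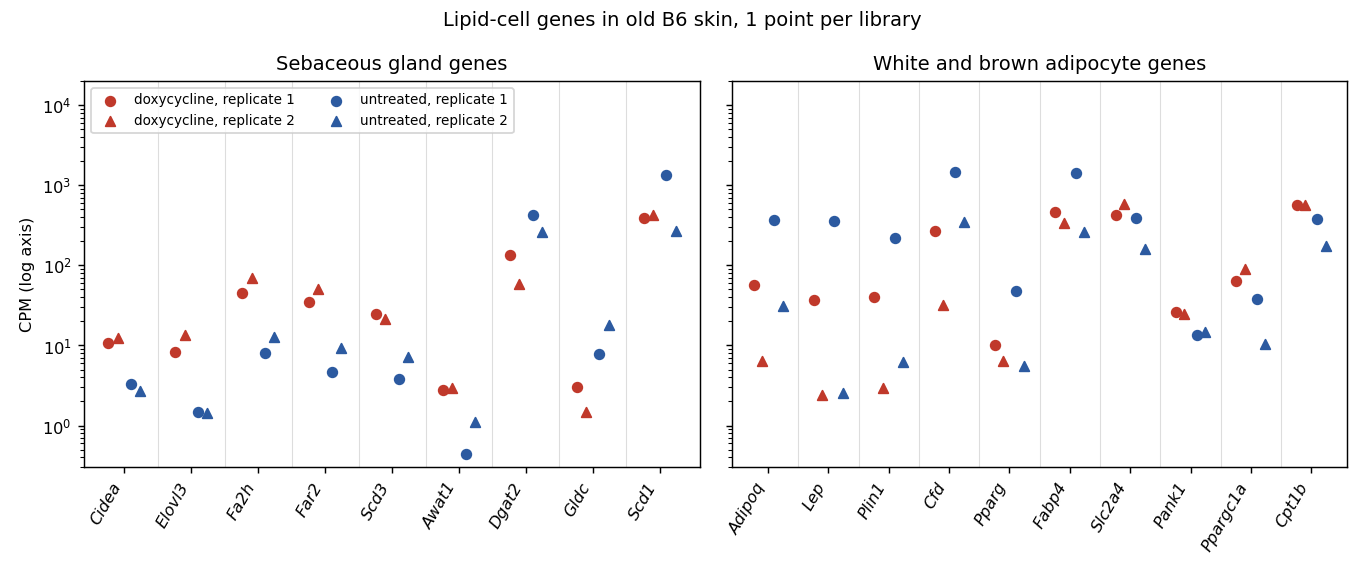
CPM (log axis) of sebaceous gland genes (left) and adipocyte genes (right) in the 4 B6 skin libraries, doxycycline (red) left of untreated (blue), circles for replicate 1 and triangles for replicate 2. Cidea, at 10.9 and 12.3 CPM in doxycycline skin and 3.31 and 2.69 CPM in untreated skin, separates the arms with little spread, whereas Adipoq, Lep and Plin1 spread as widely within the arms as between them.

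The sebaceous genes ran in the opposite direction in 4F skin, where their median log2 fold change was -1.54 and 1 of 29 members was above 0. Cidea was -2.10 ± 0.43 there, with 12.3, 4.86 and 4.06 CPM in doxycycline 4F skin, against 9.58, 31.9 and 45.01 CPM in untreated 4F skin. The difference between the B6 and 4F effects was 4.04 ± 0.68 for Cidea (unadjusted edgeR p 0.000473, DESeq2 adjusted p 7.72e-05), and edgeR did not call it over the 10 libraries. Without untreated 4F replicate 1, the library with the most kidney transcripts, edgeR called 7 genes for that difference. Lower levels remained in that fit, with 71.6 CPM of Kap in untreated 4F replicate 3 and 25.7 CPM in doxycycline 4F replicate 1. Among the 7 genes were Cidea (4.37 ± 0.41, adjusted p 0.0425), Paqr7 (4.04 ± 0.38, adjusted p 0.0425) and Slc27a4 (2.49 ± 0.24, adjusted p 0.0425). Paqr7 is a membrane progestin receptor and Slc27a4 a fatty acid transport protein of the epidermal barrier. Slurp2, a secreted Ly6 protein of keratinocytes, was called higher in B6 relative to 4F (6.44 ± 0.50), and the interferon-induced Trim30a (-3.49 ± 0.27) and Ifi204 (-3.76 ± 0.32) were called lower. In B6 skin itself Trim30a was nearly even, with 18.2 and 16.7 CPM in doxycycline skin, against 21.3 and 20.2 CPM in untreated skin. In 4F skin, untreated replicate 3 also held growing hair (3373 CPM of Krt71), as did doxycycline replicate 1 (312 CPM), and the part of the hair stage in these differences was not tested.

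**Figure D5:**
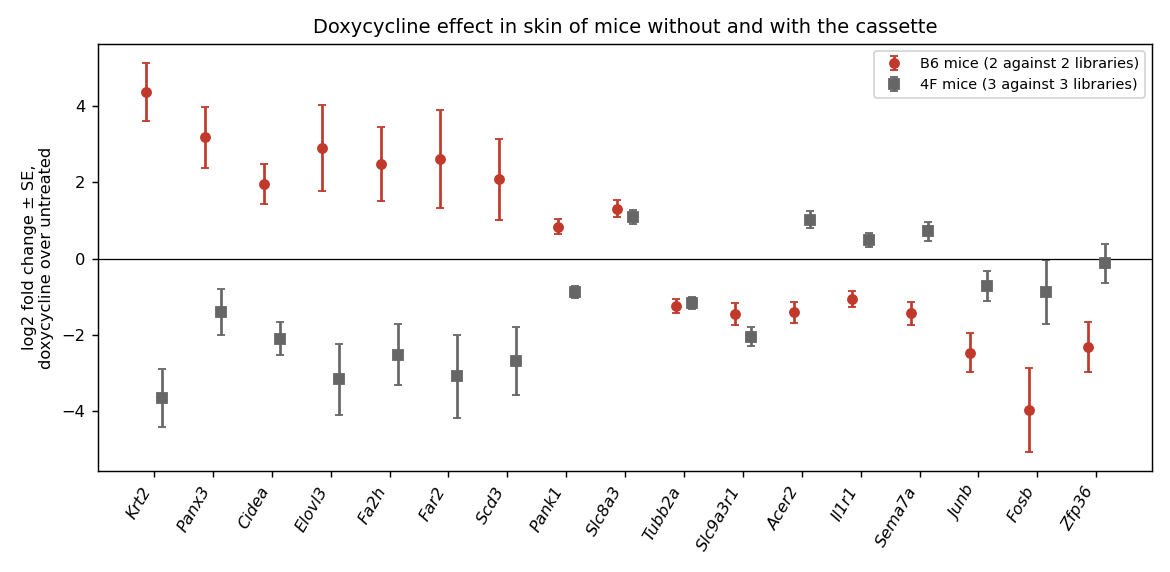
Log2 fold change with its standard error, doxycycline over untreated, in skin of B6 mice (red circles, 2 against 2 libraries) and of 4F mice (grey squares, 3 against 3 libraries), from 1 edgeR fit. Krt2, Cidea and the other sebaceous genes lie above 0 in B6 and below 0 in 4F skin, Slc8a3 and Tubb2a lie on the same side in both, and no plotted difference was called over the 10 libraries by edgeR.

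The epidermis was represented unevenly by the untreated libraries. Suprabasal genes had a median of -1.39 over 13 tested and genes of the cornified envelope -1.59 over 26, but -0.21 and -0.69 without untreated replicate 2, the library rich in epidermis. Without doxycycline replicate 1 they were -2.11 and -2.89, and without doxycycline replicate 2 -0.92 and -0.82. Sbsn, a suprabasal secreted protein, had 276 and 78.7 CPM in doxycycline skin, against 365 and 1055 CPM in untreated skin (-2.001 ± 1.38). Tgm1, the transglutaminase that cross-links the cornified envelope, had 19.1 and 4.83 CPM in doxycycline skin, against 27.7 and 77.2 CPM in untreated skin (-2.12 ± 1.19). For both genes the standard error was over 1 log2 unit.

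Krt2 (ENSMUSG00000064201, chr15:101810689-101818169 in GRCm38), a keratin of the upper epidermis of ear, sole and tail in the mouse, was 1 of 2 suprabasal genes above 0, the other being Krt1 at 0.35 ± 1.04 with overlapping arms. It also belongs to the 10 genes with the smallest unadjusted p in the higher direction. It had 22.03 and 33.3 CPM in doxycycline skin, against 0.872 and 1.82 CPM in untreated skin, with a log2 fold change of 4.36 ± 0.75 and an unadjusted p of 0.000561. DESeq2 called it over the 10 libraries (adjusted p 0.000158) and in every setting but the one without doxycycline replicate 2, where its adjusted p was 0.0674. In 4F skin Krt2 was -3.64 ± 0.76, with 6.797, 0.143 and 0.154 CPM in doxycycline 4F skin, against 0.560, 0.707 and 241 CPM in untreated 4F skin, so that its 4F effect was set by untreated replicate 3. The labels do not give the body site of the skin samples.

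Skeletal muscle genes of the panniculus were higher in doxycycline skin. Of 22 tested, 20 were above 0 and 15 had both doxycycline libraries above both untreated ones, where 26.1% of all genes tested did. The median was 0.65 in B6 skin and 0.52 in 4F skin. In the other tissues of the B6 mice it was 1.21 in lung, 0.16 in spleen, -0.04 in skeletal muscle, -0.53 in liver and -0.98 in kidney. Ttn, the giant elastic protein titin, had 13612 and 18037 CPM in doxycycline skin, against 8732 and 5505 CPM in untreated skin (1.15 ± 0.39). Neb, which encodes nebulin of the thin filament, had 5011 and 6998 CPM in doxycycline skin, against 3274 and 2287 CPM in untreated skin (1.11 ± 0.34). Actn2, the alpha-actinin of the Z-disc, had 1566 and 2033 CPM in doxycycline skin, against 902 and 625 CPM in untreated skin (1.24 ± 0.35). DESeq2 called these 3 members higher over the 10 libraries (adjusted p 0.0435, 0.0262 and 0.0495), and none of them without either doxycycline library or without untreated replicate 2. Actn3, the alpha-actinin of fast fibres, was the member apart in the lower direction, with 2318 and 2815 CPM in doxycycline skin, against 2897 and 7145 CPM in untreated skin.

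Several muscle genes were among the 10 genes with the smallest unadjusted p in the higher direction. Slc8a3, a sodium-calcium exchanger of skeletal muscle, had the smallest of these, with 109 and 115 CPM in doxycycline skin, against 53.99 and 37.2 CPM in untreated skin (1.30 ± 0.22, unadjusted p 0.000489), and 4F skin held 1.09 ± 0.18. Chrnd, the delta subunit of the muscle acetylcholine receptor, had 6.97 and 5.28 CPM in doxycycline skin, against 1.82 and 1.02 CPM in untreated skin (2.11 ± 0.47). Adprhl1, a gene of striated muscle, had 56.1 and 92.1 CPM in doxycycline skin, against 30.3 and 19.4 CPM in untreated skin (1.57 ± 0.32). Arms that do not overlap were a condition of the choice of these genes. Ap1s2, an adaptor subunit of vesicle coats, had 80.6 and 112 CPM in doxycycline skin, against 44.8 and 35.96 CPM in untreated skin (1.25 ± 0.24), and Btbd1 had 177 and 210.1 CPM in doxycycline skin, against 98.97 and 63.6 CPM in untreated skin (1.25 ± 0.27). Krt2, described above, is a further member, and Mpp5, Pknox2, Tmem64 and Lrrcc1 completed the 10, these last with log2 fold changes between 0.89 and 1.27. All 10 were called by DESeq2 over the 10 libraries, and 0 by edgeR. They were picked by small edgeR p and arms apart in these same counts, so the DESeq2 calls are not separate support.

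In the lower direction Tubb2a (chr13:34074274-34078007 in GRCm38), a beta-tubulin, had the smallest unadjusted p of the named genes, 0.000231. It had 11.1 and 10.96 CPM in doxycycline skin, against 24.5 and 27.4 CPM in untreated skin, values that nearly repeat within each arm, and a log2 fold change of -1.23 ± 0.19. DESeq2 gave an adjusted p of 6.47e-07 over the 10 libraries and called it in every setting but the one without doxycycline replicate 2 (adjusted p 0.0565). In 4F skin it was -1.17 ± 0.15, with 22.3, 15.9 and 16.8 CPM in doxycycline 4F skin, against 36.9, 34.1 and 53.3 CPM in untreated 4F skin, and the difference between the B6 and 4F effects was small (-0.07 ± 0.24, unadjusted p 0.778). Il1r1, the receptor of interleukin 1, had 28.1 and 34.7 CPM in doxycycline skin, against 61.8 and 68.97 CPM in untreated skin (-1.06 ± 0.22). Acer2, an alkaline ceramidase, had 9.21 and 12.7 CPM in doxycycline skin, against 25.4 and 32.6 CPM in untreated skin (-1.41 ± 0.28). In 4F skin these 2 genes stood at 0.48 ± 0.18 and 1.01 ± 0.22, the opposite sign. Sema7a, a membrane-anchored semaphorin, had 7.77 and 4.95 CPM in doxycycline skin, against 15.9 and 18.5 CPM in untreated skin (-1.43 ± 0.31). Arhgap25, a GTPase-activating protein of blood cells, had 5.53 and 3.43 CPM in doxycycline skin, against 15.8 and 14.1 CPM in untreated skin (-1.73 ± 0.35). Rgcc and Slc9a3r1, with Cebpa, Junb and Socs3 above, made up the 10, at -1.19 ± 0.24 and -1.44 ± 0.29.

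Mitochondrial genes were higher in doxycycline skin. Of 24 nuclear-encoded subunits of oxidative phosphorylation, 23 were above 0 and had both doxycycline libraries above both untreated ones. Of all genes tested, 45.1% were above 0 and 26.1% had arms apart in that direction. The list median was 1.00. edgeR placed 11 of them higher at an unadjusted p under 0.05 (4.59% of all genes tested) and called none. Leaving out untreated replicate 2 gave a median of 0.59, and leaving out untreated replicate 1 gave 1.57. Sdha, the catalytic subunit of complex II, had 1251 and 1532 CPM in doxycycline skin, against 759 and 349.7 CPM in untreated skin (1.33 ± 0.45). Atp5b, the beta subunit of ATP synthase, had 2752 and 3341 CPM in doxycycline skin, against 1862 and 931 CPM in untreated skin (1.13 ± 0.41). Untreated replicate 2 was the lowest library for both. The exception was Cox6a1, the non-muscle isoform of a complex IV subunit, with 25.1 and 21.5 CPM in doxycycline skin, against 45.8 and 38.5 CPM in untreated skin (-0.85 ± 0.27). Transcripts of the mitochondrial genome itself had a median of 1.03 over 15 tested, of 0.58 without untreated replicate 2 and of 1.59 without untreated replicate 1. Mitochondrial ribosomal proteins, whose ribosomes doxycycline binds, had a median of 0.58 over 28 tested and of 0.37 without untreated replicate 2. The median of the oxidative phosphorylation list was 0.67 in skeletal muscle and 0.64 in liver of the B6 mice, 0.09 in kidney, -0.08 in lung and -0.49 in spleen. Summed muscle markers moved with these lists across the 4 skin libraries, and their part in the result was not tested.

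Macrophage and mast cell genes were lower in doxycycline skin. T cell genes overlapped between the arms for 14 of 19 members, where 8835 of all 18596 genes tested overlapped. Their median was -0.47, and 0.11 without untreated replicate 2. B cell and plasma cell genes overlapped for 12 of 18 members, and the other 6 were apart lower. Their median of -1.225 was near those of the macrophage and mast cell lists, and it was -0.25 without untreated replicate 2. Of 17 macrophage genes, 0 were higher and 16 had both doxycycline libraries below both untreated ones (26.4% of all genes tested), with a median of -1.25. Elsewhere in B6 mice the macrophage median was -0.82 in kidney, -2.86 in liver, 0.04 in lung, -0.15 in skeletal muscle and -0.96 in spleen. Skin minus the mean of those tissues had a macrophage median of -0.38. Cx3cr1, the fractalkine receptor, had 1.52 and 0.562 CPM in doxycycline skin, against 2.94 and 3.07 CPM in untreated skin (-1.50 ± 0.76). Lyz2, a lysozyme, had 265 and 230.4 CPM in doxycycline skin, against 1201 and 375 CPM in untreated skin (-1.67 ± 0.95). Of 11 mast cell genes 0 were higher and 10 were apart lower (26.4% of all genes tested), with a median of -1.26. The mast cell median was -2.05 in kidney, -0.49 in liver, -0.15 in lung, 0.80 in skeletal muscle and -0.25 in spleen. Skin minus the mean of those tissues had a mast cell median of -0.80. Hdc, which makes histamine, had 2.81 and 2.98 CPM in doxycycline skin, against 10.9 and 15.7 CPM in untreated skin (-2.20 ± 0.72). Tpsb2, a tryptase, had 12.9 and 12.6 CPM in doxycycline skin, against 50.8 and 35.1 CPM in untreated skin (-1.75 ± 0.73). In 4F skin all 11 mast cell genes were above 0, with a median of 0.92, and Hdc there was 1.45 ± 0.57; its difference between B6 and 4F was -3.65 ± 0.92 (DESeq2 adjusted p 0.029, not called by edgeR).

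The genes of the 4 cassette factors were not higher in doxycycline B6 skin. Pou5f1, which encodes Oct4, had no count in any of the 4 libraries. Sox2 had 0.232 and 0.169 CPM in doxycycline skin, against 0.182 and 0.379 CPM in untreated skin. Klf4, which is also expressed in epidermis and behaves as an early gene, had 104 and 75.4 CPM in doxycycline skin, against 204 and 496 CPM in untreated skin (-1.96 ± 0.70). Myc had 20.7 and 17.6 CPM in doxycycline skin, against 23.3 and 54.8 CPM in untreated skin (-1.02 ± 0.56). Neither Klf4 nor Myc was higher in any doxycycline library than in an untreated one.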

How the data were processed

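Total RNA was extracted from skin with RNeasy and made into TruSeq Stranded Total RNA libraries, per the labels. The authors deposited raw read counts per gene, as 1 table of 52636 Ensembl genes for the series and 1 file per library; the 60 library files equal their columns in the table. The genome build is GRCm38, per the submitters' processing notes; the sources used here give no aligner or counter. Symbols and coordinates came from GENCODE vM21 for 52489 genes, and promoters from RefSeq (GRCm38.p6).

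The counts of the 10 skin libraries (2 per B6 arm and 3 per 4F arm) were fitted in edgeR 4.0.16 under R 4.3.3 with TMM scaling, filterByExpr (minimum count 10, total 15), arm and sex as terms and the robust quasi-likelihood test, with 5 residual degrees of freedom, since the B6 arms alone would leave few. Benjamini-Hochberg adjustment ran over all 18596 genes tested, at a threshold of 0.05. Standard errors are the log2 fold change over the square root of F. The contrast of skin with the other 5 tissues used the 24 B6 libraries, fitted as separate samples with 12 residual degrees of freedom. Several tissues may come from the same mouse, and the p-values of that contrast take no account of it. DESeq2 1.42.0 was an alternative. The scripts were tested on simulated data. An exact permutation test of 2 against 2 libraries cannot go below a two-sided p of 0.333, so none was used. Totals ran between 18517963 and 43176392 counts over the series; depth and the number of replicates both limit the precision.

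Genes named with values were Junb, Cidea and the 4 factors; as no gene was called, the 10 genes per direction with the smallest unadjusted p, a mean of at least 1 CPM and arms apart; and up to 8 members with the smallest unadjusted p of the immediate early, hair, sebaceous and adipocyte lists, 4 of others. Other genes (among them library markers, overlapping or contrary members, Hsd3b6, and genes of the 4F contrast and of DESeq2) were chosen after their values were seen. The lists were chosen with earlier results of these data known.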

Additional observations from a re-analysis of the deposited data

How the results depend on the processing

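With DESeq2 in place of edgeR, 92 genes were called between doxycycline and untreated B6 skin where edgeR called 0, 65 for the difference from 4F skin and 174 for the difference from the other tissues; the cause was not tested. Without single libraries edgeR called 0 to 1 genes in B6 skin (0 to 1 of the inner root sheath list) and 0 to 7 for the difference from 4F skin, and 3 for the tissue difference without untreated B6 liver and spleen replicate 2. DESeq2 called 310 genes without untreated 4F skin replicate 1 (76 shared with the 92), 170 in the B6 libraries alone (41 shared) and 1 to 489 without single B6 libraries. Among list members DESeq2 called 3 immediate early, 2 hair shaft, 3 inner root sheath, 1 sebaceous, 1 brown adipocyte, 3 skeletal muscle and 1 suprabasal genes, and 1 each of the metalloproteinase, integrated stress, glucocorticoid and nuclear RNA lists (all genes: 0.263% higher, 0.231% lower). Many named genes were chosen because their arms stood apart, so leaving out 1 library could hardly reverse their sign. The share of genes that kept their direction is therefore no measure of stability. Of 102 genes named with values, 91 kept their direction in every alternative run, and 11 changed sign only when a library was left out. Their log2 fold changes without single libraries ran from -4.95 to 0.0051 for Adipoq, -1.64 to 0.16 for Gadd45g, -0.76 to 0.031 for Klf10, -7.62 to 1.12 for Krt73, -6.21 to 2.93 for Lep, -4.46 to 0.90 for Mest, -1.50 to 0.79 for Nr4a2, -0.31 to 0.89 for Nr4a3, -1.72 to 0.56 for Scd1, -0.93 to 0.16 for Sox2 and -3.81 to 3.15 for Ucp1. The log2 ratio of summed white adipocyte levels was -0.070 on raw library totals and above 0 on TMM scaling. Scaling by DESeq2 size factors, no low-count filter and no sex term kept the direction of the hair, sebaceous, adipocyte and immediate early medians. No paired analysis was possible because no label pairs the libraries of the arms. Depth limits genes near 0.0695 to 0.140 CPM on raw library totals, which include most keratin-associated proteins.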

Other observations

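Further genes that DESeq2 called over the 10 libraries are given here as single values, chosen after their values were seen. As stated above, no such call held in every DESeq2 setting tried. Tnfaip3, an inhibitor of NF-kappa-B signalling, had 17.99 and 15.5 CPM in doxycycline skin, against 35.3 and 158 CPM in untreated skin (-2.53 ± 0.63). Serpina3n, an acute-phase protease inhibitor, had 16.7 and 17.4 CPM in doxycycline skin, against 81.3 and 210.4 CPM in untreated skin (-3.10 ± 0.85). Ifngr1, a chain of the interferon gamma receptor, had 89.2 and 80.4 CPM in doxycycline skin, against 171 and 280.4 CPM in untreated skin (-1.41 ± 0.31). All 3 had arms apart, and none was called without untreated replicate 2 or without either doxycycline library. Depp1, a target of FoxO factors, had 10.1 and 15.6 CPM in doxycycline skin, against 30.9 and 259 CPM in untreated skin (-3.49 ± 0.91), with untreated replicate 2 far above the rest. The glucocorticoid response list had a median of -1.38 over 17 tested, with 12 members apart lower (26.4% of all genes tested), and a median of -0.65 without untreated replicate 2. Its member Errfi1, a feedback inhibitor of the EGF receptor, had 61.4 and 111 CPM in doxycycline skin, against 277 and 453 CPM in untreated skin (-2.08 ± 0.56). In B6 mice the glucocorticoid median was -0.79 in kidney, -0.64 in liver, -0.35 in lung, -0.78 in skeletal muscle and -0.57 in spleen. Skin minus the mean of those tissues had a list median of -0.15.

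Odf3l2, named for the outer dense fibres of sperm tails, had 0.129 and 0.225 CPM in doxycycline skin, against 7.92 and 8.53 CPM in untreated skin (-5.58 ± 1.53). The untreated values were similar, and the part of tissue make-up in the difference was not tested. In 4F skin Odf3l2 had 1.87, 10.4 and 22.7 CPM with doxycycline, against 1.12, 2.19 and 8.84 CPM untreated. H19, an imprinted noncoding RNA of muscle, had 931 and 1023 CPM in doxycycline skin, against 359 and 401 CPM in untreated skin (1.36 ± 0.33), with each arm tight. Panx3, a channel protein of keratinocytes, had 3.83 and 4.95 CPM in doxycycline skin, against 0.545 and 0.417 CPM in untreated skin (3.18 ± 0.80), and -1.41 ± 0.60 in 4F skin.

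The core clock list had a median of 0.04 over 19 tested, with 10 above 0, and of 0.40 with 14 above 0 without untreated replicate 2. Among its members was Nr1d2, a clock repressor, at 114 and 136 CPM in doxycycline skin, against 67.98 and 70.9 CPM in untreated skin (0.85 ± 0.22). Arntl, which encodes the activator BMAL1, had 9.14 and 8.09 CPM in doxycycline skin, against 13.7 and 25.3 CPM in untreated skin (-1.18 ± 0.40). The time of day of sampling is not given in the sources used here. Red blood cell genes were lower in doxycycline skin for 8 of 8 members, with a median of -1.48, and of -0.94 without untreated replicate 2. Their medians elsewhere in the B6 mice were -1.05 in kidney, -0.81 in liver, -0.22 in lung, -2.11 in skeletal muscle and -1.99 in spleen. Skin minus the mean of those tissues gave -0.05. Neutrophil genes were lower for 15 of 15 members tested, with a median of -2.15, of -1.24 without untreated replicate 2 and of -3.63 without doxycycline replicate 1. The neutrophil median was -2.82 in kidney, -4.10 in liver, 0.09 in lung, -3.52 in skeletal muscle and -2.12 in spleen. Skin minus the mean of those tissues had a neutrophil median of 0.41, so the lower level was not particular to skin.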
